A study of Mus musculus with 57 samples.

Results

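The genes described here make cholesterol, sense it and move it: 28 genes taken by symbol from a table of 21118 genes, namely 18 enzymes of sterol synthesis, 5 regulators of the sterol regulatory element binding proteins (SREBPs) and 5 genes of sterol handling and removal. All 28 were found in the table and all were tested. The RNA was ribosome-bound messenger RNA of mouse cerebral cortex, pulled out of homogenate by translating ribosome affinity purification, in which an antibody to GFP retrieves ribosomes that carry a tagged L10 protein. All mice were Aldh1l1-L10-GFP on a C57BL/6 background, so the animals of every age carried the same transgene, and Aldh1l1 is a gene of astrocytes. In all 53 animals gave 1 library each: 8 at postnatal day 1 (P1), then 8 (P4), 12 (P7), 10 (P14), 6 (P35) and 9 from adults, with females and males labelled at each age and no exact age given for the adults. The labels do not say how many litters these animals came from, and tagged ribosomes were retrieved from whole cortex, so RNA of untagged cells can remain.

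Cholesterol in the brain is made in place, because lipoproteins of the blood do not cross the blood-brain barrier, and astrocytes make it and pass it to neurons on apolipoprotein particles. Synthesis runs from acetyl-CoA through mevalonate to squalene, then to lanosterol, the first sterol with a closed ring system, and from there through several reductions and demethylations to cholesterol. When sterol is scarce, SCAP escorts SREBP-2 to the Golgi apparatus, where it is cleaved and released to switch on the enzyme genes; when sterol is plentiful, the INSIG proteins hold SCAP in the endoplasmic reticulum.

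The smallest library held 14768178 counts and the largest 48541139. P1 female 4 stood apart: 10085 genes had at least 10 counts there, against 13834 in P7 female 40, 14530 in P14 male 4 and more in the others, and Msmo1, Hsd17b7 and Npc1 had 0 counts in it. By a limit of 1 CPM of Y-linked transcripts, 11 libraries went against their labelled sex. Among them the signal was mixed in P7 female 10, P7 female 30, Adult female 2 and Adult female 3. These held 3.84 to 17.7 CPM of Y-linked RNA and 5.49 to 47.2 CPM of Xist, an RNA made in females. Females and males below are as labelled. A level is given in CPM, the count of a gene relative to the scaled total of its library, so all libraries share 1 scale. Of the 16 mature astrocyte markers none was at 0 in any library, and their summed level ran from 4679 to 29765 CPM in adults, with a median of 20028, and from 995 to 6872 CPM at P1, with a median of 2191. Summed levels of 14 neuronal markers ran from 3203 to 13499 CPM in adults, with a median of 4358. At P1 they ran from 1530 to 8230 CPM, with a median of 4490, and no marker was at 0 in any library. In bulk material of this kind, fewer cells of a type and less RNA per cell cannot be told apart.

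SREBPs bind DNA near the start of their target genes, so the stretch around the annotated start (250 bases before it and 50 after) is shown for the 5 members that open the account below: Hmgcs1, Acat2 and Lss, which fell with age, and Soat1 and Cyp46a1, which rose. The sequences are those of RefSeq on GRCm38.p6, 5′ to 3′ on the strand of the gene: Hmgcs1 on chr13:119690101-119690400 (plus strand), Acat2 on chr17:12960676-12960975 (minus), Lss on chr10:76531355-76531654 (plus), Soat1 on chr1:156474279-156474578 (minus) and Cyp46a1 on chr12:108334066-108334365 (plus). Capitals mark matches on either strand to 3 motifs: the sterol regulatory element TCACNCCAC, the CCAAT box and the GC box GGGCGG.
Hmgcs1: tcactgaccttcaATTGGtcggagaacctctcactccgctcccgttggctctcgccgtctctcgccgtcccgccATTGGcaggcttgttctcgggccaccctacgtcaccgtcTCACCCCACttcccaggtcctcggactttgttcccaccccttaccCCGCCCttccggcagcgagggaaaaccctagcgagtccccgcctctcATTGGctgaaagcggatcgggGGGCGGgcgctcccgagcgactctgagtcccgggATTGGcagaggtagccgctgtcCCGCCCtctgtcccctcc
Acat2: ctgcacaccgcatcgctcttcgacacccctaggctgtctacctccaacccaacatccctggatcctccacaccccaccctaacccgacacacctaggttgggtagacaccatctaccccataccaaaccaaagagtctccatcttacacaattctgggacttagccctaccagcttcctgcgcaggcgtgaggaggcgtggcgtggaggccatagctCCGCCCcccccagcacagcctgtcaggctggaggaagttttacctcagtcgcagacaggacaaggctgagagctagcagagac
Lss: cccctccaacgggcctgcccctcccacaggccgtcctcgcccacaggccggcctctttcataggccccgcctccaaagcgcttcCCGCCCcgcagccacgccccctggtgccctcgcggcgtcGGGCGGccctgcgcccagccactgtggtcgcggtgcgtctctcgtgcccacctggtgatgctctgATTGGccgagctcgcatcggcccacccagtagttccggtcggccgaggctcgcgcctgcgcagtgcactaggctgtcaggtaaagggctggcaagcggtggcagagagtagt
Soat1: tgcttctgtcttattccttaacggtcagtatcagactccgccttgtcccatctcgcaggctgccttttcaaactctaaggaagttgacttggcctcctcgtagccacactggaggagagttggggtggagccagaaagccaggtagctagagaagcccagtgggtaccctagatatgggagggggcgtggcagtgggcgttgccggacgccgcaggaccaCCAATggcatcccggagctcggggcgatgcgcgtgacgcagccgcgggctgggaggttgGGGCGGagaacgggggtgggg
Cyp46a1: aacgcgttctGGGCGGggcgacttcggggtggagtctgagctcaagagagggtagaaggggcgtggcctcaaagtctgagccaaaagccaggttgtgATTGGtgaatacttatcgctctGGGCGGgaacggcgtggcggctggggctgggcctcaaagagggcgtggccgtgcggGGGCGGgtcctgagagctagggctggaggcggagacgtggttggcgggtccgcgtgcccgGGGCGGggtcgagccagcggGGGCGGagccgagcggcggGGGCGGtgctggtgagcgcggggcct
TCACNCCAC was found once, in Hmgcs1, 137 bases before the start, among the 23 members with an entry; 1.24% of all 32851 promoters held it. CCAAT was found in 21 of the 23, against 37.4% of all promoters, and GGGCGG in 22 of the 23, against 35.7%. Among the sequences printed, Acat2 held a GC box and no CCAAT, while Hmgcs1 held 4 CCAAT and 3 GC boxes and Cyp46a1 1 CCAAT and 6 GC boxes. A member with several annotated starts was counted as holding a motif if any of its promoters did, whereas these shares are per promoter; per gene they are 1.44% for TCACNCCAC, 41.1% for CCAAT and 38.2% for GGGCGG. Fdps, Fdft1, Sqle, Stard4 and Npc1 were not searched.

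Over the 6 ages, 17 of the 28 genes changed (adjusted p under 0.05), against 43.5% of all genes tested: 11 of the 18 enzymes, 2 of the 5 regulators and 4 of the 5 handling genes. Between P1 and adulthood 7 fell and 4 rose. Those lower in adults were all enzymes (Acat2, Hmgcs1, Mvk, Fdps, Sqle, Lss and Cyp51), and those higher in adults were the regulator Srebf1 and the handling genes Soat1, Npc1 and Cyp46a1. Of all genes 19.5% were called lower in adults and 21.8% higher. The median log2 change, adult minus P1, was -0.44 over the 18 enzymes, 0.45 over the 5 regulators and 1.48 over the 5 handling genes, beside 0.06 over all genes. In the same order, these medians were -0.78, -0.13 and 0.69 within labelled females and -0.09, 0.48 and 1.42 within labelled males. The labelled P1 females include P1 female 4, the library with the fewest genes. Adult female 2, Adult female 3 and Adult male 60 go against their labelled sex. The members were chosen by name, and the medians are descriptions with no test.

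**Figure D1:**
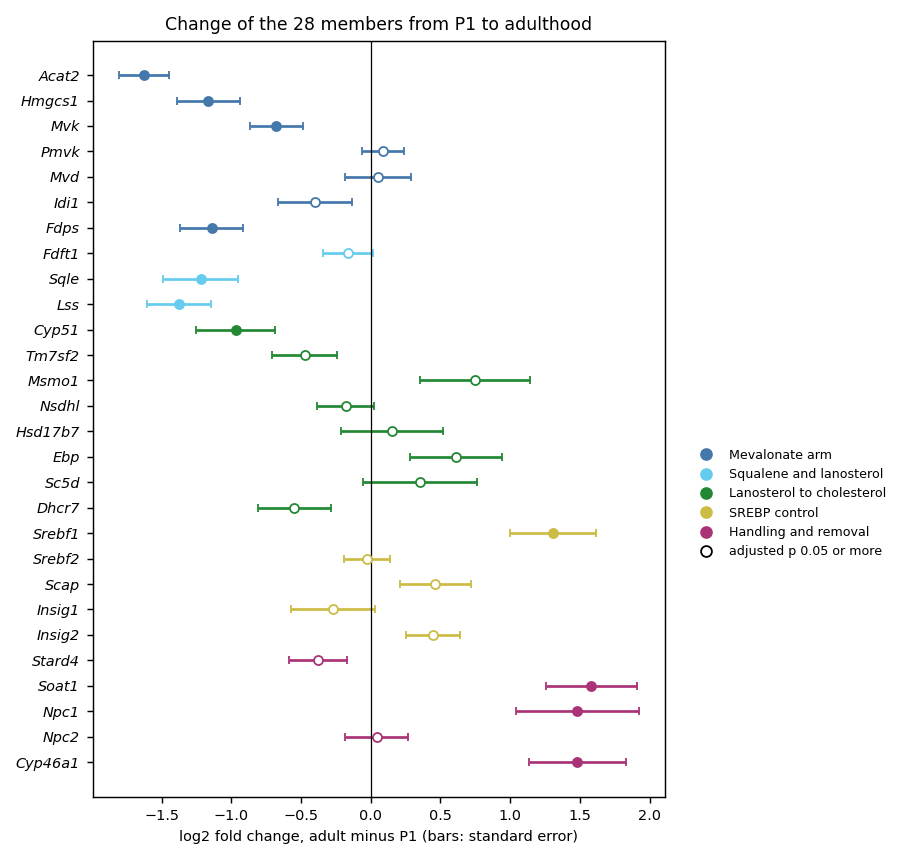
Log2 fold change, adult minus P1, of the 28 members in pathway order, with bars of 1 standard error; filled points passed an adjusted p of 0.05. The 7 filled points left of 0 are enzymes between Acat2 and Cyp51 in the pathway, and the 4 right of 0 are Srebf1, Soat1, Npc1 and Cyp46a1.

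In the mevalonate arm, 4 of 7 enzymes fell and none rose. Acat2, a cytosolic thiolase that joins acetyl-CoA units (chromosome 17, 12942890 to 12960747, minus strand), had the largest fall. It had a lowest, median and highest level of 59.9, 98.7 and 128 CPM in the 9 adults, against 227, 286 and 432 CPM in the 8 libraries at P1. No adult reached the lowest P1 library. The change was -1.63 ± 0.18 on the log2 scale (SE; adjusted p = 9.92e-10 by edgeR's quasi-likelihood test). By age, its median was 286 CPM at P1, 306 CPM at P4, 255 CPM at P7, 107 CPM at P14, 89.8 CPM at P35 and 98.7 CPM in adults, and the step that passed was P14 minus P7, -0.83 ± 0.18 (adjusted p = 0.00735).

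Hmgcs1, the cytosolic HMG-CoA synthase, had the highest mean level per length at P1, with 176 ± 128 CPM per kilobase of exon (SD, n = 8), beside 123 ± 28.9 for Acat2, which was above it in 4 of the 8 libraries. Its lowest, median and highest levels were 133, 332 and 512 CPM in adults, against 337, 571 and 1814 CPM at P1. The ranges overlapped, and the fall was -1.16 ± 0.23 (adjusted p = 5.31e-05); 12.1% of its exon bases are also exon of a predicted gene on the other strand. Its median was 571 CPM at P1, 872 CPM at P4, 1167 CPM at P7, 520 CPM at P14, 398 CPM at P35 and 332 CPM in adults. These medians take no account of replicate set, and at P7 the 4 libraries of a second sequencing run (set S, found at no other age) had 1420 to 2463 CPM; with set as a term of the model, P7 minus P4 was -0.0069 (95% interval -0.48 to 0.47). The difference between P14 and P1 was not called (-0.39, 95% interval -0.82 to 0.04, adjusted p = 0.172), whereas adults were below P14 by -0.78 ± 0.21 (adjusted p = 0.0336). That last call was lost when any of 10 single libraries was left out (Adult female 1, 2 or 4, Adult male 1 or 60, P14 female 1 or 4, P14 male 1, 2 or 6).

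Fdps, which joins isoprene units into farnesyl diphosphate, had 10.6, 21.4 and 38.7 CPM (lowest, median, highest) in adults, against 34.6, 40.1 and 67.6 CPM at P1. The top of the adult range reached into the P1 range, and the change was -1.14 ± 0.23 (adjusted p = 7.17e-05); 26.7% of its exon bases are also exon of a predicted gene on the same strand, so part of its count is uncertain. Mvk, the kinase that phosphorylates mevalonate, had 22.9, 68.5 and 104 CPM in adults, against 57.3, 86.8 and 120 CPM at P1. Its change was the smallest of the 7, -0.68 ± 0.19 (adjusted p = 0.00401), and was -0.45 (adjusted p = 0.124) without the 11 libraries that go against their labelled sex. The 3 enzymes between Mvk and Fdps in the pathway had no call between adulthood and P1: Pmvk, the next kinase, differed by 0.09 (95% interval -0.21 to 0.39), Mvd, the decarboxylase, by 0.05 (-0.41 to 0.52) and Idi1, the isomerase, by -0.40 (-0.92 to 0.12). P1 female 4 was the lowest P1 library of Idi1, and without it the difference was -0.57 (adjusted p = 0.0731); without the 3 libraries with few genes together it was called (-0.62, adjusted p = 0.0188). Pmvk stood first per length in adults, with 83.6 ± 41.8 CPM per kilobase (SD, n = 9), beside 66.7 ± 24.8 for Hmgcs1; both enzymes' libraries overlap.

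Of the 3 enzymes from farnesyl diphosphate to lanosterol, 2 fell. Lss, the cyclase that folds oxidosqualene into lanosterol (chromosome 10, 76531588 to 76557138, plus strand), had 13.2, 23.9 and 33.6 CPM in adults, against 37.0, 51.7 and 116 CPM at P1. Every adult lay below every P1 library. The change was -1.37 ± 0.23 (adjusted p = 4.58e-06), and as with Acat2 the step that passed was P14 minus P7, -0.77 ± 0.23 (adjusted p = 0.0475). Sqle, the squalene epoxidase, had 10.1, 44.8 and 58.9 CPM in adults, against 21.9, 93.2 and 127 CPM at P1, a change of -1.22 ± 0.27 (adjusted p = 0.000286). P1 female 4 held the lowest P1 value of Sqle, 21.9 CPM, and without that library the change was -1.41. Fdft1, the squalene synthase between them and Fdps, had 107, 186 and 225 CPM in adults, against 123, 173 and 257 CPM at P1, a difference of -0.16 (95% interval -0.51 to 0.19). Over the 6 ages Fdft1 was called (adjusted p = 0.0336), which 7 single libraries at P4 or P35 ended when left out. It was also lost with DESeq2 (adjusted p = 0.0588), with DESeq2's size factors in edgeR (0.0765), without the 11 libraries against their labelled sex (0.0693) and without the replicate block (0.163).

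Acat2 and Lss were the only members whose adult and P1 libraries did not overlap, both lower in adults; 2.69% of all genes were lower without overlap and 3.58% higher, where 0 members stood.

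**Figure D2:**
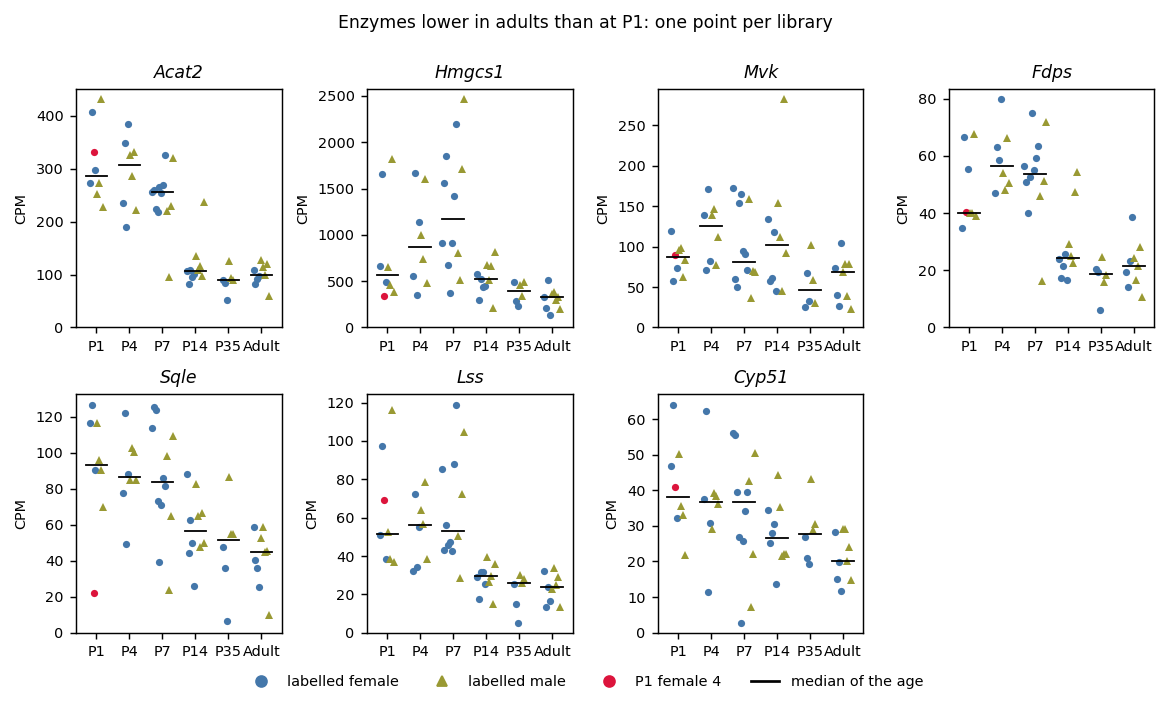
CPM per library (vertical axis, linear from 0) at 6 ages for the 7 enzymes lower in adults than at P1; circles are labelled females, triangles labelled males, red is P1 female 4 and bars are medians. Acat2 and Lss separate adults from P1 completely, while Hmgcs1 has its highest median, 1167 CPM, at P7, where the 4 libraries of set S lie between 1420 and 2463 CPM.

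From lanosterol onward, 1 of 8 enzymes fell between P1 and adulthood. Cyp51, the lanosterol demethylase, had 11.6, 20.2 and 29.2 CPM in adults, against 21.8, 38.2 and 64.0 CPM at P1, a change of -0.97 ± 0.29 (adjusted p = 0.00558); over the 6 ages together it missed the threshold (adjusted p = 0.0626). The others spanned both signs, with Msmo1, a C4 methyl oxidase, at 0.75 (95% interval -0.03 to 1.52) and Dhcr7, the last reductase of one branch, at -0.55 (-1.06 to -0.03; adjusted p = 0.0902). P1 female 4 had 0 CPM of Msmo1 and 89.3 CPM of Dhcr7; without that library the differences were 0.50 and -0.19. Tm7sf2, a C14 sterol reductase, and Nsdhl, a C4 decarboxylating dehydrogenase, changed over the 6 ages (adjusted p = 0.002 and 0.022) without a call between adult and P1. Their adult minus P1 differences were -0.47 and -0.18. Both calls over the ages were lost without the 11 libraries against their labelled sex (adjusted p = 0.06 and 0.151). They were also lost without the replicate block (0.229 and 0.122), and that of Nsdhl without P35 male 3 alone. Ebp, a sterol isomerase, Sc5d, a desaturase, and Hsd17b7, a C3 ketoreductase, passed neither test, with 0.61 (-0.04 to 1.26), 0.35 (-0.44 to 1.15) and 0.15 (-0.56 to 0.87). P1 female 4 was the lowest P1 library of these genes too, and without it the differences were 0.39, 0.12 and -0.089. Over the 6 ages Ebp was called in 9 alternative settings. Among them were the fit without P1 female 4 (adjusted p = 0.00632), DESeq2 (0.00316) and limma voom (0.0391).

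Summed over the 18 enzymes, which weights the abundant ones, the mean level was 2211 ± 782 CPM at P1, 2553 ± 609 CPM at P4, 2761 ± 768 CPM at P7, 1760 ± 402 CPM at P14, 1335 ± 435 CPM at P35 and 1364 ± 341 CPM in adults (SD). The highest of these unadjusted means was at P7, which alone holds set S, and libraries of neighbouring ages overlapped throughout. With set in the model, 15 of the 18 enzymes had a negative estimate in P7 minus P4 (median -0.12), and none was called. By steps, no member passed in P4 minus P1, P7 minus P4 or adult minus P35, where 0.44%, 1.67% and 0% of all genes did. Acat2 and Lss fell in P14 minus P7 (1.65% of all genes lower). Mvk and Pmvk fell in P35 minus P14 (0.81% lower), Mvk by -0.98 ± 0.21 (adjusted p = 0.0132) and Pmvk by -0.65 ± 0.17 (adjusted p = 0.035). In that step 14 of the 18 enzymes had a negative estimate. Without P1 female 4, 9 member calls were made over the 5 steps in place of 4; without P35 male 10 or P35 male 3 alone, 1 was.

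Across the first 2 weeks, P14 minus P1, 4 members fell and 3 rose, against 15.8% and 19.3% of all genes. Acat2 (-1.39), Lss (-1.01), Fdps (-0.77) and Dhcr7 (-0.65, adjusted p = 0.0429) were lower at P14. Pmvk (0.46), Soat1 (0.97) and Cyp46a1 (1.02) were higher. Without P1 female 4 the Dhcr7 call was lost, and the Cyp46a1 call was lost without P1 female 6 or P14 female 2. From P14 to adulthood 3 members fell and 0 rose, against 1.96% and 1.29% of all genes: Mvk by -0.92 ± 0.18 (adjusted p = 0.00214), Tm7sf2 by -0.79 (adjusted p = 0.0366) and Hmgcs1; the Tm7sf2 call was lost without Adult female 1, 2 or 3, Adult male 1 or 4, P14 female 1 or 3, or P14 male 4. With P1 female 4, P7 female 40 and P14 male 4 left out together, Srebf1 (0.86), Npc1 (0.93) and Soat1 (0.62) were called higher in adults than at P14.

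Among the regulators, only Srebf1 was called between adulthood and P1. It encodes SREBP-1, which acts mainly on fatty acid genes, and had 20.8, 45.9 and 71.6 CPM in adults, against 2.74, 14.6 and 55.8 CPM at P1. The ranges overlapped and the change was 1.31 ± 0.31 (adjusted p = 0.00068). By age its median was 14.6 CPM at P1, 21.4 CPM at P4, 13.1 CPM at P7, 28.6 CPM at P14, 27.5 CPM at P35 and 45.9 CPM in adults. Srebf2, which encodes the SREBP that acts on the sterol enzymes, had 85.4, 128 and 163 CPM in adults, against 66.1, 111 and 211 CPM at P1. Its difference was -0.02 with a 95% interval of -0.35 to 0.30, and it had no call over the 6 ages (adjusted p = 0.59).

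Insig1, the retention protein whose own gene is an SREBP target, had 18.5, 65.1 and 141 CPM in adults, against 3.66, 55.8 and 174 CPM at P1, a difference of -0.27 (95% interval -0.86 to 0.32), and of -0.49 without P1 female 4. Its libraries spread over more than an order of magnitude at P1, the lowest being P1 female 4. Insig2, the second retention protein, had 21.8, 61.3 and 73.0 CPM in adults, against 15.9, 29.5 and 89.2 CPM at P1; it changed over the 6 ages (adjusted p = 0.00344), while adult minus P1 was 0.45 ± 0.19 (adjusted p = 0.0584). The 89.2 CPM is P1 female 4, and without it the difference was 0.67 (adjusted p = 0.00188). Scap, the escort, had 11.5, 27.3 and 44.8 CPM in adults, against 5.48, 19.7 and 35.2 CPM at P1, a difference of 0.46 (-0.04 to 0.97), and of 0.27 without P1 female 4.

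Of the 5 handling genes, 3 rose. Soat1, which esterifies cholesterol for storage (chromosome 1, 156424525 to 156474331, minus strand), had 4.16, 19.7 and 30.9 CPM in adults, against 0.211, 6.47 and 14.2 CPM at P1. Of the 9 adults, Adult male 60 alone, at 4.16 CPM, lay below the P1 maximum, and the change was 1.58 ± 0.33 (adjusted p = 0.000141). Without P1 female 4, which held the 0.211 CPM, the change was 1.345. Npc1, the lysosomal membrane protein that exports cholesterol (chromosome 18), had 6.06, 18.5 and 26.0 CPM in adults, against 0, 5.96 and 11.8 CPM at P1. Npc1 changed by 1.48 ± 0.44 (adjusted p = 0.00623), and by 1.23 without P1 female 4, which held the 0. Its partner in the lysosome, Npc2, which hands sterol to it, had 35.7, 151 and 192 CPM in adults, against 34.2, 110 and 178 CPM at P1, a difference of 0.04 (95% interval -0.40 to 0.48). Soat1 and Npc1 were the 2 members lowest per length at P1 and in adults: 2.06 ± 0.82 and 1.38 ± 0.59 CPM per kilobase in adults (SD, n = 9).

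Cyp46a1, the 24-hydroxylase by which brain cholesterol is turned over and which is known mainly from neurons (chromosome 12, 108334381 to 108362234, plus strand), had 22.4, 37.8 and 96.2 CPM in adults, against 4.37, 12.0 and 82.4 CPM at P1. The 82.4 CPM is P1 female 4, and the median of the other P1 libraries was 9.94 CPM. The change was 1.48 ± 0.35 (adjusted p = 0.000614), and 2.19 (adjusted p = 4.62e-08) without that library. The median by age was 12.0 CPM at P1, 9.32 CPM at P4, 22.9 CPM at P7, 28.4 CPM at P14, 46.3 CPM at P35 and 37.8 CPM in adults. Of the 14 neuronal markers, 9 also rose and 2 fell between P1 and adulthood (median 1.69), against 21.8% and 19.5% of all genes. The summed level of these markers, unadjusted for replicate set, had a median of 4490 CPM at P1 and 4358 CPM in adults. Their part in the rise of Cyp46a1 was not tested. Stard4, a cytosolic sterol carrier (chromosome 18), changed over the 6 ages (adjusted p = 0.00106), with medians of 40.4 CPM at P1, 57.0 CPM at P4, 61.6 CPM at P7, 35.7 CPM at P14, 32.6 CPM at P35 and 27.8 CPM in adults. Its adult minus P1 difference was -0.38 (adjusted p = 0.144), and -0.55 (adjusted p = 0.00727) without P1 female 4, which at 8.44 CPM was the lowest library.

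**Figure D3:**
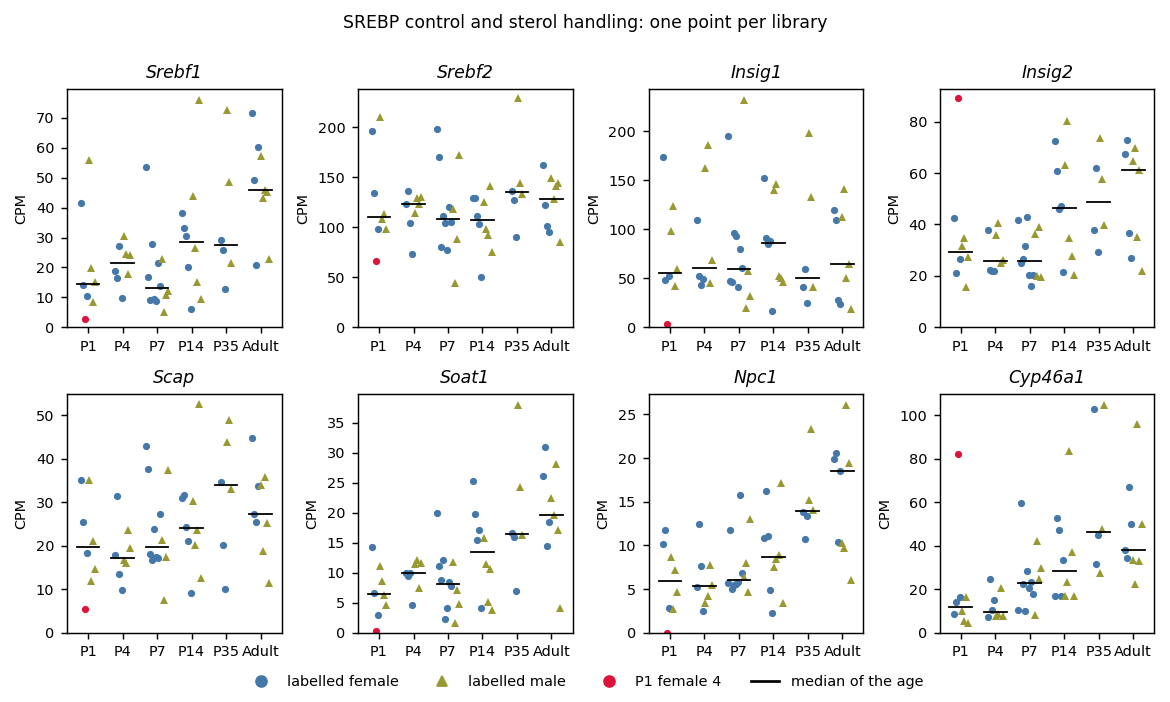
CPM per library (vertical axis, linear from 0) at 6 ages for the 5 regulators and 3 handling genes; circles are labelled females, triangles labelled males, red is P1 female 4 and bars are medians. Soat1, Npc1 and Cyp46a1 have their highest medians at P35 or in adults, and P1 female 4 is the highest P1 library for Insig2 and Cyp46a1.

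Neighbouring lists of the pathway, fixed by name, moved as follows between P1 and adulthood. Beside these counts, 21.8% of all genes were called higher in adults and 19.5% lower. Of 8 genes of SREBP cleavage and sterol-regulated degradation, 4 fell and none rose, among them Rnf145, a ubiquitin ligase (-0.79, adjusted p = 0.0013). Of 13 fatty acid genes that SREBP-1 acts on, 7 rose and 4 fell. Acss2, an acetyl-CoA synthetase, rose by 1.51, Mid1ip1, a cofactor of acetyl-CoA carboxylase, by 1.29 and Scd1, a desaturase, by 1.22.

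Lipoprotein uptake and sterol export had 7 genes higher in adults and 2 lower of 17. For this list and those that follow, the shares of all genes were 21.8% higher and 19.5% lower. Clu, an apolipoprotein, averaged 800 ± 367 CPM in adults and 91.8 ± 74.0 CPM at P1 (SD; log2 change 3.30), and Apoe, the main apolipoprotein of astrocytes, 2735 ± 1392 CPM in adults and 549 ± 535 CPM at P1 (2.58). Scarb1, a lipoprotein receptor, was lower in adults (-2.13). Of 13 intracellular sterol transporters, 5 rose and 2 fell; Osbpl1a, an oxysterol-binding protein, rose by 1.53, Gramd1b, which carries sterol from the plasma membrane, by 1.11, and its relative Gramd1a fell by 1.25 on the log2 scale. Of 4 oxysterol and bile acid enzymes measured, 2 rose and 1 fell: Cyp7b1 was at 1.46, and Cyp39a1, which hydroxylates the product of Cyp46a1, at -1.34.

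Markers of cell types moved with age too, beside every count above. The shares of all genes called between P1 and adulthood were 21.8% higher and 19.5% lower in adults. Of 16 mature astrocyte markers, 15 rose and none fell between P1 and adulthood (median 2.14), with Aldoc at 6612 ± 3300 CPM in adults and 649 ± 430 CPM at P1 (SD), while Aldh1l1 itself, the gene that names the transgene, was at 188 ± 74.7 CPM in adults and 141 ± 105 CPM at P1, with no call. All 12 oligodendrocyte and myelin markers rose (median 3.53; summed levels 832 to 2545 CPM in adults and 115 to 301 CPM at P1, with 6 of the 12 at 0 in at least 1 P1 library), and oligodendrocytes also make cholesterol for myelin. All 8 cell division markers fell (median -4.96; summed levels 5.46 to 18.2 CPM in adults and 69.5 to 406 CPM at P1). Of 7 oligodendrocyte precursor markers, 3 rose and 2 fell; of 10 microglia markers, 3 rose; of 10 endothelial and mural markers, 1 rose and 2 fell. Their part in the changes of the sterol genes was not tested.

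No member was called between labelled females and males by edgeR's test, and 0 of the 28 passed even an unadjusted p under 0.05; of all genes, 0.0284% were called and 453 passed the unadjusted level. Female minus male estimates ran from -0.16 for Lss (95% interval -0.43 to 0.11) to 0.25 for Soat1 (-0.13 to 0.62), with Cyp46a1 at 0.24 (-0.16 to 0.64). No member had a sex by age interaction after adjustment, as for 0% of all genes; 3 members and 778 of all genes passed unadjusted. DESeq2 and limma voom called 0 members for sex as well. Within labelled females, adult minus P1 called 2 members higher and 9 lower (11.7% and 11.6% of all genes), and within labelled males 4 higher and 5 lower (14.1% and 12.7%). Cyp46a1 was at 0.69 (95% interval -0.30 to 1.67) in females, whose P1 group holds P1 female 4, and at 2.28 (1.30 to 3.26) in males, with no interaction called. For 11 libraries the label itself is in doubt, and without them the count was again 0.

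Libraries also differed by replicate set, the first digit after the dash in their names, which the model carries as a term: 19 of the 28 genes differed between sets, against 69.1% of all genes. In set 6, 17 members were lower than in set 1 and none higher (median -1.09 on the log2 scale), where 17.1% of all genes were called lower and 17.2% higher. Among the 17 were all 5 regulators: Srebf1 at -2.26 ± 0.33 (adjusted p = 7.29e-07), Insig1 at -2.21 ± 0.33 (adjusted p = 1.12e-06) and Srebf2 at -1.16 ± 0.18 (adjusted p = 1.15e-06). Soat1 was at -2.23 and Npc2 at -1.84 there. In the same set all 16 astrocyte markers were lower (median -2.38) and 13 of 14 neuronal markers higher (1.64). In set 3, 13 members were lower and 2 higher, against 24.8% and 28.2% of all genes, with all 16 astrocyte markers lower (-1.73) and all 14 neuronal markers higher (2.11). The 2 higher ones were Cyp46a1, at 1.50 ± 0.32 (adjusted p = 0.000117), and Hmgcs1, at 0.63 ± 0.20 (adjusted p = 0.00948).

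In set 4, which holds P1 female 4, 10 members were lower than in set 1 and none higher, against 8.3% and 9.56% of all genes, and Hmgcs1 was among the lower (-0.86). In set S, 4 libraries at P7 from a second sequencing run alone, 7 were lower and 1 higher, Hmgcs1 (1.01), against 18.3% and 14.3% of all genes. In set 2, 0 members were called, as were 0% of all genes in either direction. The part of the astrocyte and neuronal RNA content in these differences was not tested. Acat2, Mvd, Fdps, Fdft1, Nsdhl, Hsd17b7, Ebp, Stard4 and Npc1 were called in no set, while Insig1 was lower in sets 3, 4, 6 and S.

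**Figure D4:**
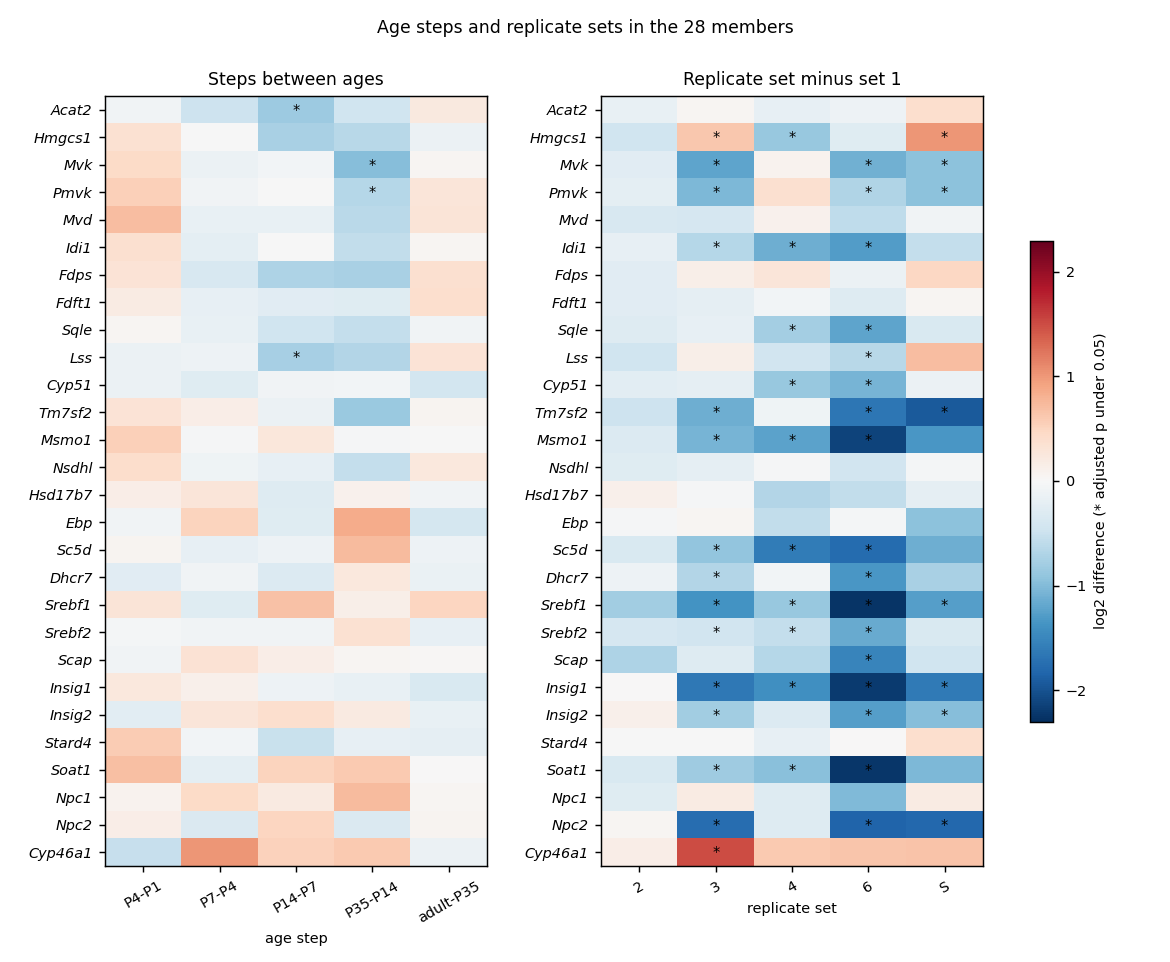
Log2 difference (colour) of the 28 members in each step between neighbouring ages (left, later minus earlier) and in each replicate set minus set 1 (right); asterisks mark an adjusted p under 0.05. The left panel holds 4 asterisks, the right one a column of 17 in set 6, and Hmgcs1 differs upward in sets 3 and S and downward in set 4.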

How the data were processed

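The authors deposited raw counts of reads per gene, 1 column per library. The submitters' processing notes name featureCounts, HISAT2, CASAVA and SAMtools, without versions, and the build GRCm38.p5. For the annotation and the strand of counting, the setting is not given in the sources used here, so reads of overlapping genes are uncertain; GENCODE M21 shows exon overlap for Fdps (26.7% of exon bases, same strand), Fdft1 (18.3%, other strand), Scap (13.2%, other), Hmgcs1 (12.1%, other) and Tm7sf2 (12.1%, same). Each of 4 P7 animals sequenced in 2 runs has 1 column, used as it stands.

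The fit used edgeR 4.0.16 under R 4.3.3 with TMM scaling and the robust quasi-likelihood test. A single model held the 53 libraries, with terms for sex, age, their interaction and replicate set; age differences are means of the labelled sexes. The filter on low counts removed 0 genes. Adjusted p-values are Benjamini-Hochberg over 21118 genes, with a threshold of 0.05; intervals are 95%, and SE is on the log2 scale. Fits that leave out 1 library kept the dispersion trend of all libraries. The script was tested on simulated data. DESeq2 1.42.0 and limma 3.58.1 (voom) were alternatives. A fit without the replicate block dropped the set terms except that for set S. The p-values measure the spread between libraries of separate animals. Among 100 pairs of libraries within a group, none agreed within sampling noise (lowest chi-square per degree of freedom 30.3).

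The 28 members and all gene lists were chosen with earlier results of these data known. Full values were given for members past the threshold with the 4 largest rises and falls, for regulators and for handling genes; other lists were named by smallest adjusted p over the ages, up to 3 genes, and markers by abundance. The other enzymes described in full were added because all were called. The list of other sterol enzymes and electron donors is not reported here.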

Additional observations from a re-analysis of the deposited data

Results flagged for a closer look

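Within each age except P7, whose 12 libraries were more than this screen covers, the highest and lowest library of each gene were set against the gap to the next library on the log2(CPM + 0.5) scale; 19 of 140 sets of values stood out, where chance gives about 1 in 20. Of these, 11 came from P1 female 4. It was the lowest P1 library for Idi1 (37.6 CPM, median of the others 173), Sqle (21.9, others 95.9), Ebp (0.141, others 5.23), Sc5d (1.12, others 31.9), Insig1 (3.66, others 59.2) and Stard4 (8.44, others 41.4). Msmo1, Hsd17b7 and Npc1 had 0 CPM there, with medians of 63.3, 21.8 and 7.21 CPM in the others. It was the highest for Dhcr7 (89.3 CPM, others 14.9) and Cyp46a1 (82.4, others 9.94).

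Cyp51 was low in P4 female 4 (11.5 CPM, others 37.4) and Srebf2 in P4 female 6 (73.9, others 124). Acat2 was high in P14 male 6 (237 CPM, others 107) and Ebp low in P14 female 4 (1.65, others 5.73). P35 female 6 was low for Fdps (6.03 CPM, others 19.4) and Sqle (6.26, others 55.0). Adult male 60 was low for Sqle (10.1 CPM, others 45.2) and Soat1 (4.16, others 21.1).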

How the results depend on the processing

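Of the 11 calls in adult minus P1, 10 passed under all 62 alternatives that fit both sexes. Of these alternatives, 53 left out 1 library each, and the fit with no filter repeated the main fit. Mvk was lost without the replicate block (-0.52, adjusted p = 0.254) and without the libraries at odds with their labelled sex. No estimate of a called member turned its sign. The fit without the replicate block still held a term for set S. Without the replicate block, 10 members changed over the ages in place of 17, and 0 in P14 minus P1 upward (3 with it), in adult minus P14 downward (3 with it) and in the steps (4 with it). Of all genes, 5248 changed over the ages without it and 9190 with it. Libraries with the same number deviated together by a median correlation of 0.346, 201 of 223 pairs being over 0.1, and 42 of 53 were closest to their own number. The labels state no pairing by number, and why such libraries deviated together was not tested. DESeq2 gave 5 in P14 minus P1 upward and 7 in the steps. Limma voom gave 5 in P14 minus P1 upward and 7 in adult minus P1 upward. Without the 3 libraries with few genes, 3 rose in adult minus P14. Without the libraries against their labelled sex, 0 fell in adult minus P14 and 0 changed in the steps, where the main counts were 3 and 4. In that setting Mvd, Fdft1, Tm7sf2, Nsdhl and Npc1 lost their calls over the 6 ages. In females alone 2 members rose in adult minus P1, against 4. Leaving out each library in turn gave 15 to 19 members over the ages, 4 to 5 higher and 7 to 8 lower in adult minus P1, 2 to 4 higher and 3 to 5 lower in P14 minus P1, 0 to 1 higher and 1 to 3 lower in adult minus P14, 1 to 9 in the steps and 19 to 22 between sets; sex and its interaction stayed at 0. The cause was not tested. In all, 21 settings ended the Dhcr7 call in P14 minus P1. All-gene counts in adult minus P14 were 686, 99 without the block, 1479 by DESeq2, 1939 without the 3 libraries with few genes and 218 without those against their sex label. The first run alone was not run, since both runs share 1 column. The SE of adult minus P1 ran from 0.15 for Pmvk to 0.44 for Npc1.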
